A study of Homo sapiens with 64 samples.

Results

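The 239 genes described here are the numbered ZNF genes of human chromosome 19. They were chosen by symbol and position alone: ZNF followed by a number, with every listed 3′ end interval of the gene on chromosome 19. They are 239 of the 473 such symbols and of the 31796 gene names in the interval files. ZNF proteins of this kind carry rows of C2H2 zinc fingers, each of which reads a few bases of DNA. Most on chromosome 19 also start with a KRAB domain, which recruits the co-repressor TRIM28 and, through it, histone methylation that silences transposable elements. They arose by tandem duplication and sit in clusters of near relatives, and their mRNAs are known as low in level and short in life.

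The study lowered FBL (fibrillarin), the 2′-O-methyltransferase of the box C/D snoRNP, or NOP56, a scaffold protein of the same particle, with siRNA. The tested cells were HEK293T with siFBL or siNOP56 and C4-2 with siFBL, against cells of the same line with the control siRNA siCTRL. HEK293T is an embryonic kidney line that carries the SV40 large T antigen, and C4-2 is a prostate cancer line that grows without androgen. Poly(A) RNA was taken at 0, 6, 12 and 24 h from HEK293T cells and at 0, 3, 6 and 12 h from C4-2 cells, with 2 libraries for each siRNA and hour. The labels call this a half-life experiment. By what means transcription was stopped, no source used here states. The labels name siNOP56, and the design text names an shRNA against NOP56 instead. RNA that came down with FBL (RIP) was compared with its input, 2 libraries each, in C4-2 cells with siCTRL. There was no RIP with a control antibody and none after siFBL among the libraries analysed. SLAM-seq of C4-2 cells with siFBL or siCTRL followed uridine labelled with a thiol (100 µM for 24 h), read as T>C changes, at 0, 6, 12 and 24 h after the label was replaced by excess uridine, with 2 libraries each. In all, 60 of 64 libraries were used, and the 4 nanopore libraries were not analysed here. Nothing states that the replicates were separate cultures, so p-values measure the spread between these libraries only, which may be technical.

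In the SLAM-seq set, the hour written in the header of a file differed from the labelled hour in 12 of the 16 libraries, while the siRNA was the same in all 16. Both hours are given below. The knockdown was visible in the counts. Levels are given as CPM, the count of a gene scaled to the total count of its library. FBL stood at 3.63 and 2.76 CPM in C4-2 cells with siFBL at 0 h, against 305 and 265 CPM with siCTRL. In HEK293T cells FBL stood at 17.7 and 15.5 CPM with siFBL, against 322 and 313 CPM with siCTRL. NOP56 stood at 91.9 and 76.3 CPM in HEK293T cells with siNOP56, against 206 and 204 CPM with siCTRL. Markers of each line were read in that line (12 of 12 at 1 CPM or more in C4-2, 9 of 10 in HEK293T), and of the other line's markers 5 of 10 reached 1 CPM in C4-2 and 6 of 12 in HEK293T. The C4-2 markers summed to 7010 to 10898 CPM in C4-2 libraries and 65.9 to 185 CPM in HEK293T libraries, where KLK3 was the 1 marker at 0. The HEK293T markers summed to 63.2 to 140 CPM in C4-2 and 807 to 1623 CPM in HEK293T. Libraries held 79 to 106 M counts in C4-2, 16 to 19.9 M in HEK293T, 22.9 to 33.3 M in RIP and input, and 14.3 to 60.3 M mapped reads in SLAM-seq.

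The genes fall into 16 groups along the chromosome where a gap of over 1 Mb is taken as a break (hg38). The largest are at 55.5 to 58.5 Mb (57 genes), 51.6 to 53.6 Mb (39 genes), 19.7 to 24.1 Mb (36 genes), 36.2 to 37.8 Mb (25 genes), 11.5 to 12.6 Mb (24 genes) and 43.5 to 45.1 Mb (24 genes). In GENCODE v29, 238 of the 239 had a coding sequence under the same symbol. A KRAB pattern was found in 200 of these and in 38 it was not. The median gene encoded 12 fingers (range 0 to 36) in a coding sequence of 1760 nt (411 to 4095). Reads of such near relatives, and of overlapping or antisense genes, cannot be told apart where counting split them or ignored strand, which the sources used here do not state.

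The repeated finger also repeats a short sequence in the mRNA. Members of the miR-181 family are known to bind ZNF coding sequences at many copies of the seed match. Their mature sequences (RefSeq, GRCh38.p14) are shown with the seed, bases 2 to 8, in capitals. All 4 share it.
hsa-miR-181a-5p: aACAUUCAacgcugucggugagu
hsa-miR-181b-5p: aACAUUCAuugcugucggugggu
hsa-miR-181c-5p: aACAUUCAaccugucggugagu
hsa-miR-181d-5p: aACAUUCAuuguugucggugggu
The mature sequences of miR-181c and miR-181d are themselves encoded on chromosome 19, at chr19:13874725-13874746 and chr19:13874910-13874932 on the plus strand. The seed match TGAATGT stood in the coding sequence of 171 of 238 genes (71.8%), against 2483 of 19524 coding genes of the genome (12.7%). It stood there 5 or more times in 97 of the 238 (40.8%), against 177 of all coding genes (0.907%), with a median of 4 copies and at most 15. Per kb of coding sequence, the density was 2.22 copies in these genes and 0.104 in all other coding genes.

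One window per gene is shown for 6 genes with many copies, the first copy that overlaps a finger match, on the coding strand of GENCODE v29 (GRCh38), with the match in capitals. They stand at chr19:52035038-52035066 (ZNF432, minus strand), chr19:44477405-44477433 (ZNF180, minus), chr19:36949985-36950013 (ZNF568, plus), chr19:36639752-36639780 (ZNF461, minus), chr19:52322100-52322128 (ZNF480, plus) and chr19:57356788-57356816 (ZNF304, plus).
ZNF432: cacgtatgcagTGAATGTgggaaagcgtt
ZNF180: gagaaacctttTGAATGTaatcagtgtgg
ZNF568: tataagtgtaaTGAATGTggaaaagcttt
ZNF461: gagaaaatctcTGAATGTaaaaagtgtag
ZNF480: gagaagccgtaTGAATGTaaTGAATGTgg
ZNF304: tatacatgcagTGAATGTgggaaggcctt
ZNF432 held 15 copies, ZNF180 and ZNF568 11 each, ZNF461 and ZNF480 10 each, and ZNF304 8. Of 954 copies in all, 934 (97.9%) began at the third codon position, so that GAA and TGT were read as whole codons. A finger match overlapped 870 of them (91.2%). The copies are thus a part of the finger repeat itself, and the match is given here as a description, not as a site shown to be bound.

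The mRNAs were present at low levels in both lines. In C4-2 cells with siCTRL at 0 h the median gene stood at 5.89 CPM, 196 genes reached 1 CPM, 69 reached 10 CPM, and 1 was at 0. In HEK293T cells with siCTRL the median was 2.32 CPM, with 154 genes at 1 CPM, 30 at 10 CPM and 27 at 0. The highest CPM was that of ZNF146 in C4-2, a protein made almost wholly of fingers, at 118 ± 13.2 CPM (SD, n = 2). ZNF358 had the highest in HEK293T, at 102 and 106 CPM. Scaled to transcript length, genes with no KRAB pattern stood higher than those with one, at medians of 5.03 against 1.51 CPM per kb in C4-2 and 4.01 against 0.53 CPM per kb in HEK293T. Per kb, ZNF358 (53.2), ZNF580 (47.2), ZNF787 (22.2) and ZNF146 (20.6) led in HEK293T. Among the 10 genes with the highest CPM in C4-2, ZNF544 read 50.8 and 43.9 CPM there and a mean of 0.13 CPM in HEK293T.

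Over the time course, the chromosome 19 ZNF mRNAs fell relative to the average mRNA, in both lines and with every siRNA. For these medians 0.5 was added to each CPM before log2 was taken. In C4-2 cells the median gene, set against its own 0 h level, stood at -1.06 and -1.26 (log2) at 3 h with siFBL, against -1.08 and -1.09 with siCTRL. At 12 h it stood at -1.60 and -1.86 with siFBL, against -1.52 and -1.64 with siCTRL. Most of the drop in this measure was thus in place by the first time point. The added 0.5 limits how far a gene of low level can fall in it, so later falls are flattened. A list of textbook short-lived mRNAs had dropped further, to -4.14 and -3.97 at 12 h with siCTRL, while ribosomal protein mRNAs stood at 1.13 and 1.12. Counts per library sum to a fixed total here, so a stable mRNA rises in share as others are lost. The summed level of the 233 genes tested was 735 and 721 CPM at 12 h with siFBL, against 852 and 822 CPM with siCTRL, and at 0 h it was 1873 and 1952 CPM with siFBL, against 2360 and 2200 CPM with siCTRL.

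**Figure D1:**
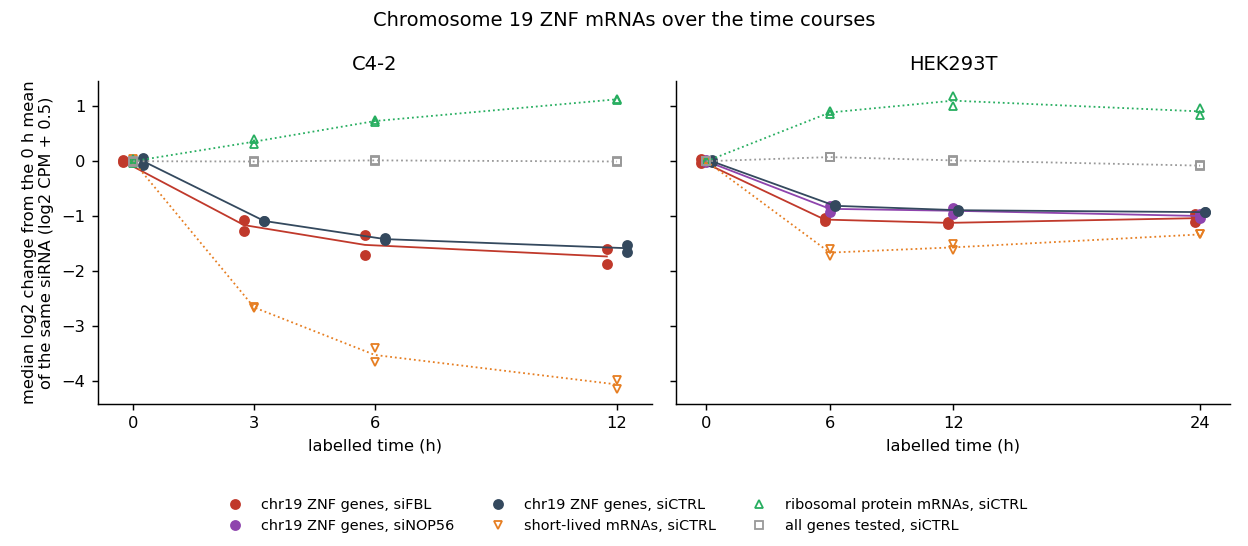
Median log2 level of the chromosome 19 ZNF genes in each library relative to the mean 0 h level of the same siRNA, against hours, in C4-2 and HEK293T cells. Before log2 was taken, 0.5 was added to each CPM. Points are libraries and lines join their means. Short-lived mRNAs, ribosomal protein mRNAs and all genes are drawn for siCTRL. The ZNF medians lie under the line of all genes at every hour after 0, at -1.60 and -1.86 with siFBL and -1.52 and -1.64 with siCTRL at 12 h in C4-2.

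A slope was fitted to each gene as its log2 change per hour, with its own slope for each siRNA. It was tested against no change over the hours, not against siCTRL (edgeR's quasi-likelihood test, Benjamini-Hochberg adjusted p under 0.05 over all genes tested). A lower slope here is one called negative, and a higher slope one called positive. In C4-2 cells 170 of 233 had a slope called negative with siFBL and 2 one called positive, where 19.2% of all genes were called lower and 15.9% higher. With siCTRL it was 149 lower and 4 higher, where 18.6% and 15.4% of all genes were called. The median slope was -0.184 per hour with siFBL (all genes -0.016) and -0.156 with siCTRL (all genes 0.003). Of the 149 called lower with siCTRL, 144 (96.6%) were also among the 170 called lower with siFBL (84.7% of those). Of the other genes of chromosome 19, 207 were lower and 256 higher of 1100 with siCTRL, with a median of 0.014 per hour. Of the ZNF genes of other chromosomes, 144 of 234 were lower, with a median of -0.122. The difference between these lists was not tested.

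ZNF14 had the steepest slope with siCTRL in C4-2. It read 6.08 and 7.40 CPM at 0 h and 0.24 and 0.0805 CPM at 12 h with siFBL, against 7.16 and 7 CPM at 0 h and 0.0625 and 0.0425 CPM at 12 h with siCTRL. Both siRNAs left the mRNA near the bottom of the scale at 12 h, and the slopes were -0.441 with siFBL (SE 0.0799, adjusted p 0.000211, edgeR) and -0.628 with siCTRL (SE 0.0932, adjusted p 3.4e-05, edgeR). ZNF574 was already low at 3 h. It read 15 and 19.5 CPM at 0 h and 0.744 and 0.922 CPM at 3 h with siFBL, against 18.5 and 18.1 CPM and 0.856 and 0.721 CPM with siCTRL. ZNF146, the most abundant in CPM, fell more slowly. It read 91.9 and 70.7 CPM at 0 h, 31.6 and 13.9 CPM at 3 h and 3.71 and 1.94 CPM at 12 h with siFBL, against 127 and 109, 50.7 and 54.2, and 8.41 and 6.83 CPM with siCTRL. At each of these hours both siFBL libraries lay below both siCTRL libraries. The difference was called at 12 h (log2 -1.43, adjusted p 0.0288, edgeR), a call lost without siCTRL A, siCTRL B or siFBL B. It was not called at 0 h and not tested at 3 h. ZNF416, ZNF134 and ZNF543 were also steep, at -0.499, -0.388 and -0.372 per hour with siFBL, against -0.532, -0.463 and -0.437 with siCTRL. ZNF274, which is known to bind the 3′ ends of ZNF genes and bring silencing marks there, read 14.1 and 21.1 CPM at 0 h and 1.06 and 0.977 CPM at 12 h with siFBL, against 17.9 and 17.8 CPM and 1.29 and 0.95 CPM with siCTRL.

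A few genes ran the other way relative to the average mRNA. ZNF358 read 111 and 149 CPM at 0 h and 196 and 262 CPM at 12 h with siFBL, against 106 and 114 CPM and 185 and 177 CPM with siCTRL, with slopes of 0.065 (adjusted p 0.000912, edgeR) and 0.064 (adjusted p 0.00105, edgeR). Scaled to ribosomal protein mRNAs instead, these slopes turned negative, to -0.018 with siFBL and -0.029 with siCTRL. ZNF599 was also called higher with both siRNAs, at 0.047 and 0.065 per hour, and ZNF580 (0.044) and ZNF428 (0.043) with siCTRL. With that scaling they too turned negative (ZNF599 -0.038 with siFBL and -0.028 with siCTRL, ZNF580 -0.049, ZNF428 -0.049). The calls were also easily lost. ZNF599 lost its call without siFBL library A of 0, 3 or 12 h (adjusted p 0.134, 0.0503 and 0.368, edgeR) and without siCTRL library A of 12 h (0.0646), ZNF580 lost its call without siCTRL library A of 12 h (0.0623), and ZNF428 lost its call without any 1 of the 8 siCTRL libraries.

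In HEK293T cells, 94 of 179 had a slope called negative with siFBL and 2 one called positive, where 29.2% of all genes were called lower and 22.5% higher. With siNOP56 it was 78 lower and 2 higher (all genes 29% and 21.8%), and with siCTRL 77 lower and 4 higher (all genes 28.3% and 21.8%). The median slopes were -0.053 with siFBL, -0.049 with siNOP56 and -0.048 per hour with siCTRL. The counts rested on the 0 h libraries: both directions together, 96 became 47 and 43 without siFBL 0 h replicate 1 or 2, 80 became 29 and 39 without siNOP56 0 h replicate 1 or 2, and 81 became 35 and 38 without siCTRL 0 h replicate 1 or 2. The median gene had reached -1.04 and -1.08 (log2 against 0 h) at 6 h with siFBL and -0.92 and -0.81 with siNOP56, against -0.80 and -0.82 with siCTRL. By 24 h it stood at -0.96 and -1.11, -1.04 and -0.95, and -0.92 and -0.93 in the same groups. Most of the drop in this measure, which flattens later falls of genes of low level, was thus in place by 6 h. The slope is fitted over 24 h. ZNF555 was steep with all 3 siRNAs, at -0.130 with siFBL, -0.177 with siNOP56 and -0.132 per hour with siCTRL (adjusted p 0.00137, 0.000358 and 0.00159, edgeR). ZNF358 again had a higher slope, at 0.061, 0.064 and 0.066 per hour. Scaled to ribosomal protein mRNAs it stayed positive with siFBL (0.021, adjusted p 0.0676, edgeR) and siNOP56 (0.022, adjusted p 0.0556) but was no longer called.

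Slopes in the 2 lines ranked the genes alike to a degree. Over the 179 genes tested in both, Spearman's rho was 0.49 with siCTRL (0.69 over 14553 genes of all kinds) and 0.53 with siFBL, where the lines share neither libraries nor hours after 0 other than 6 and 12. Of these 179, 127 were called lower in C4-2 and 77 in HEK293T with siCTRL, and 66 in both, which is 52% of the C4-2 list and 85.7% of the HEK293T list. These shares stand beside 43% of the 179 called lower in HEK293T and 70.9% in C4-2, so part of the overlap comes with lists of this length. Of 14553 genes of all kinds, 27.8% were lower in C4-2 and 28.8% in HEK293T, and the 2605 in both were 64.3% of the C4-2 list and 62.1% of the HEK293T list. Genes with 5 or more seed matches in the coding sequence had a median C4-2 slope of -0.157, those with 1 to 4 had -0.163, and those with none had -0.139.

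Lowering FBL or NOP56 did not detectably change the slopes. No gene of the family was called for the difference between siFBL and siCTRL in C4-2, where 0.00427% of all genes were. Without adjustment, 2 were higher and 10 lower at p under 0.05 in edgeR, while DESeq2 called 0. The median difference was -0.018 per hour. The lowest p-values were those of ZNF211 (-0.179, adjusted p 0.74), ZNF331 (-0.197, adjusted p 0.755) and ZNF556 (-0.275, adjusted p 0.902). In HEK293T no gene was called for siFBL or siNOP56 against siCTRL, where 0% of all genes were. Without adjustment, 1 was higher and 3 lower at p under 0.05 in edgeR with siFBL, and 2 were higher and 2 lower with siNOP56. DESeq2 called 0 in both.

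SLAM-seq gave a measure of loss that does not depend on the share of a library. T>C reads of the family made up 61.1% of its reads with siFBL in the library labelled and headed 0 h, against 76% with siCTRL, while the whole libraries stood at 54.5% and 58.4%. In the libraries labelled and headed 6 h the family stood at 13.4% with siFBL and 17.8% with siCTRL, against 29.5% and 33.6% of the whole libraries. The family was above its library at 0 h and far below it at 6 h. The excess at 0 h is one of summed reads, in which abundant mRNAs weigh most: of 145 genes with at least 20 reads in each library the median share was 62.1% with siFBL and 79.5% with siCTRL, against 66.9% and 77.9% over 10085 such genes of all kinds. In the other 12 libraries the share followed the hour in the header. Both siFBL libraries headed 24 h, labelled 0 and 12 h, stood at 2.81% and 2.64%, and both siCTRL libraries headed 24 h stood at 4.97% and 4.80%. The siFBL library headed 0 h and labelled 12 h stood at 61.6%, and its siCTRL counterpart at 75.7%.

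**Figure D2:**
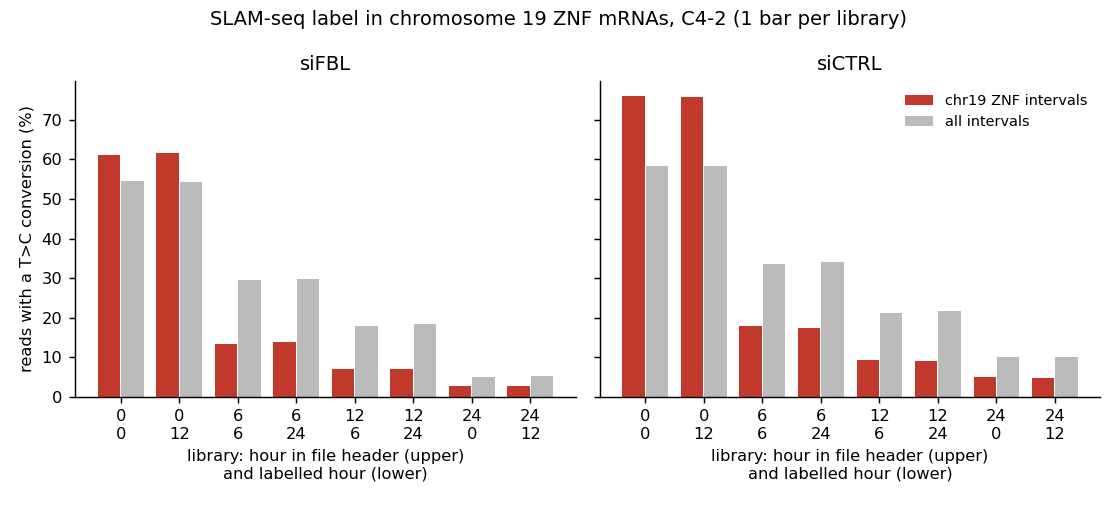
Percent of reads with a T>C change in each of the 16 SLAM-seq libraries, for the chromosome 19 ZNF genes and for all reads, 1 pair of bars per library. The upper row of tick labels is the hour in the file header and the lower row the labelled hour. Shares fall in the order of the header hour, to 13.4% and 13.9% with siFBL and 17.8% and 17.4% with siCTRL in the libraries headed 6 h.

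The share left at 6 h was computed for each gene from the 4 libraries whose label and header agree, 1 per siRNA and hour, so these values have no replicate. The median gene of the 145 kept 16.7% of its 0 h T>C share with siFBL and 18.7% with siCTRL, against 39.3% and 41.4% of all genes. ZNF genes of other chromosomes kept 17.3% and 20.8%, short-lived mRNAs 12% and 11.7%, and ribosomal protein mRNAs 92.2% and 94.9%. With all 16 libraries placed by the header hour, the family kept 16.4% with siFBL and 18.9% with siCTRL at 6 h, 6.51% and 7.9% at 12 h, and 2.98% and 2.71% at 24 h. Across 143 genes of the family, the share kept at 6 h with siCTRL and the C4-2 siCTRL slope had a Spearman's rho of 0.47, and over 9061 genes of all kinds it was 0.73. These are different libraries and different methods in the same line.

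Among the 10 genes with the most SLAM-seq reads, the T>C share in the agreeing libraries separated slow genes from fast ones. ZNF358 kept most of its 0 h share, 64.3% with siFBL and 79.8% with siCTRL, with 39.4% at 0 h and 25.4% at 6 h with siFBL, against 48.2% and 38.5% with siCTRL. ZNF428 kept 52.3% with siFBL and 64.2% with siCTRL, with 62.1% and 32.5% with siFBL, against 65.7% and 42.2% with siCTRL. Both also had a higher slope in C4-2 with siCTRL, which turned negative with scaling to ribosomal protein mRNAs. ZNF146 had 67.9% and 5.34% with siFBL, against 85.3% and 13.1% with siCTRL. ZNF791 had 47.6% and 5.56%, against 63.5% and 5.32%. ZNF121 had 64.5% and 7.66%, against 80.1% and 13.2%. These 3 lost most of their label within 6 h with either siRNA. ZNF264 (73.4% and 12.4%, against 85.2% and 16.1%), ZNF419 (59.1% and 8.88%, against 77.2% and 12%) and ZNF562 (58.9% and 10.6%, against 74% and 11.2%) were alike. ZNF580 (59.4% and 17.8%, against 67.3% and 22.3%) lay between. ZNF787 (44.7% and 13.1%, against 62.4% and 12.3%) lay between only with siFBL, where it kept 29.3%. With siCTRL it kept 19.7%, near the 18.9% of ZNF264.

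For the T>C share with siFBL against siCTRL over all labelled hours (limma on log2 odds), 0 of 145 genes were called, where 0% of all genes were, and 0 had an unadjusted p under 0.05. This test says little, since libraries that share a labelled hour differ widely in the family's T>C share (76% and 4.97% with siCTRL at 0 h). With the hour of the header, 0 of 145 were called, where 0.506% of all genes were, with 1 higher and 11 lower at an unadjusted p under 0.05 and a lowest adjusted p of 0.0872 (limma). With the 4 agreeing libraries alone, 0 of 184 were called, where 0% of all genes were, with 1 higher and 28 lower at an unadjusted p under 0.05. No count test was run on this share. For total reads, 0 of 209 genes were called by edgeR, where 0.929% of all genes were, and the median change was -0.20 (all genes -0.02). By raw p under 0.05, 3 were higher and 22 lower in edgeR, and DESeq2 called 5. With the hour of the header in place of the label, 2 of 209 were called higher and 16 lower. Of all genes, 11.6% were called in either direction and 5.71% lower. With the agreeing libraries alone, 0 of 209 were called higher and 10 lower, where 6.13% of all genes were called in either direction and 3.39% lower. ZNF714 (-0.36 and -0.68, adjusted p 0.0474 and 0.000343, edgeR), ZNF581 (-0.35 and -0.76, adjusted p 0.0383 and 0.00556) and ZNF468 (-0.87 and -0.58, adjusted p 0.000919 and 0.0257) were in both lists. They are named after their values were seen.

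In RNA that came down with FBL, 108 of the 218 genes tested stood higher than in input and 51 lower (edgeR, adjusted p under 0.05), where 39.9% of all genes were higher and 43% lower. The median gene was at 0.30 (log2 RIP over input), against -0.11 over all genes. Scaled to ribosomal protein mRNAs, which themselves stood lower in RIP (59 of 77 lower, median -0.77), the split became 184 higher and 8 lower. That scaling raised the median of all genes to 0.88 and left the family 0.41 above it. Summed over the 218 genes, the family stood at 5311 and 5127 CPM in RIP, against 3563 and 3542 CPM in input. With no control antibody, binding of FBL and recovery of a kind of RNA in any precipitation cannot be told apart. Of the ZNF genes of other chromosomes 122 were higher and 53 lower of 211 (median 0.42), and of the other chromosome 19 genes 267 were higher and 360 lower of 762 (median -0.28). The difference between these lists was not tested.

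ZNF208 and ZNF91, both with many fingers, stood highest, though not every gene with many fingers stood high. ZNF208, with 36 fingers, read 9.49 and 7.69 CPM in RIP, against 0.558 and 0.599 CPM in input, a log2 change of 3.88 (SE 0.211, adjusted p 7.91e-17, edgeR). ZNF91, with 31 fingers, is known to repress SVA retrotransposons, and read 252 and 217 CPM in RIP, against 46.1 and 35.6 CPM in input (log2 2.52, SE 0.0855, adjusted p 5.46e-22, edgeR). In both, every RIP library lay far above both inputs, which adds no support since they have the largest called changes. ZNF347 (48.4 and 43.9 CPM, against 8.31 and 9.18), ZNF841 (82.8 and 73.0 CPM, against 18.1 and 18.3) and ZNF761 (179 and 169 CPM, against 40.2 and 44.0) followed, at log2 changes of 2.40, 2.1 and 2.05. All 3 belong to the group at 51.6 to 53.6 Mb. At the other end, ZNF829 read 3.04 and 3.02 CPM in RIP, against 10.0 and 9.81 CPM in input (log2 -1.71, SE 0.142, adjusted p 2.52e-12, edgeR). ZNF580, with 3 fingers, read 9.91 and 8.32 CPM in RIP, against 21.6 and 23.6 CPM in input (log2 -1.31). ZNF793 (-1.51), ZNF625 (-1.48), ZNF576 (-1.42), ZNF524 (-1.31), ZNF581 (-1.27) and ZNF428 (-1.24) were also lower. ZNF461 was lower (-1.45) although it holds 10 seed matches.

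By number of fingers, 34 of 49 genes with over 15 were higher and 4 lower (median 0.66), 58 of 124 with 9 to 15 were higher and 27 lower (0.26), and 16 of 45 with 8 or fewer were higher and 20 lower (-0.24). Genes with a KRAB pattern had a median of 0.33 (96 higher and 36 lower of 184), and those without one had -0.34 (12 higher and 15 lower of 34). Across the 218, Spearman's rho of the RIP change was 0.40 with fingers, 0.48 with coding length, 0.31 with transcript length and -0.35 with the GC share of the coding sequence. Over 12868 genes of all kinds it was 0.58 with coding length and 0.48 with transcript length, so long coding sequences stood higher in RIP across the transcriptome and fingers and length move together in this family. The part of each was not tested. The RIP change and the C4-2 siCTRL slope had a rho of -0.02.

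**Figure D3:**
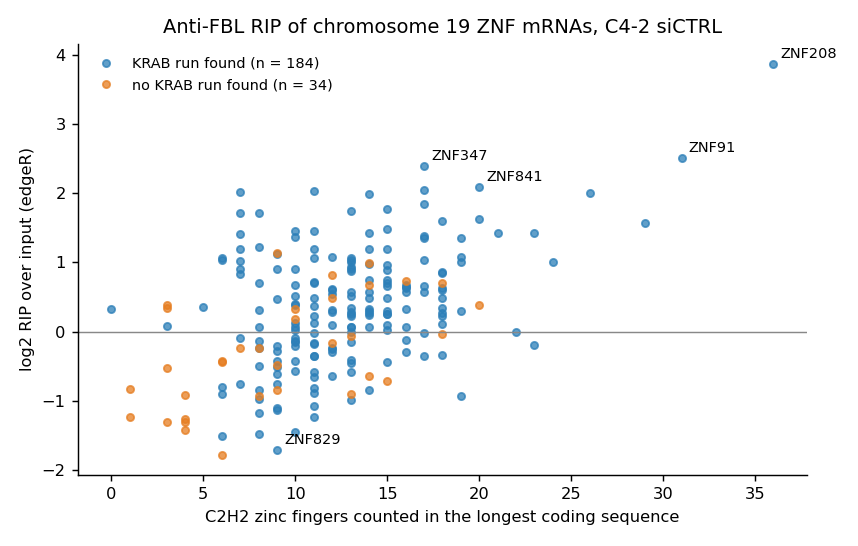
Log2 RIP over input of each chromosome 19 ZNF gene tested against its number of zinc fingers, with a KRAB pattern found (n = 184) or not (n = 34). ZNF208 at 36 fingers and ZNF91 at 31 stand at 3.88 and 2.52, and ZNF829 is the lowest of the named genes at -1.71.

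With siFBL in C4-2 cells at 0 h, 7 of 233 genes fell and 1 rose (edgeR, adjusted p under 0.05), where 6.87% of all genes were lower and 1.61% higher. The share of lower calls (3%) was thus under that of all genes. The median of the family was -0.16, against 0.04 over all genes, and 146 of the 233 were below 0. Scaled to ribosomal protein mRNAs it was 3 lower and 2 higher. That scaling raised the median of all genes to 0.26 and left the family 0.20 below it. In bulk RNA, fewer cells of a kind and less RNA per cell cannot be told apart.

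Of the 7 that fell, 6 lie in the group at 19.7 to 24.1 Mb. ZNF714 read 15.3 and 12.0 CPM with siFBL, against 42 and 35.7 CPM with siCTRL (log2 -1.51, SE 0.241, adjusted p 0.00079, edgeR), and it alone of the 8 kept its call without any 1 library. ZNF726 read 1.04 and 0.555 CPM, against 3.35 and 2.31 CPM (log2 -1.83, adjusted p 0.0117). ZNF43 read 7.10 and 8.76 CPM, against 18.9 and 17.2 CPM (log2 -1.18, adjusted p 0.00833). In these 3 the siFBL and siCTRL libraries did not overlap, which adds no support since the genes were chosen by their call. ZNF85 (log2 -1.04), ZNF675 (-0.93) and ZNF738 (-0.89) fell in the same group, and ZNF266 (-0.65) at 7.1 to 9.8 Mb. ZNF524, a protein with few fingers and no KRAB pattern, rose to 22.5 and 25.7 CPM with siFBL, against 15.3 and 15.6 CPM with siCTRL (log2 0.64, SE 0.177, adjusted p 0.034, edgeR). ZNF93, which is known to repress L1 retrotransposons and also lies at 19.7 to 24.1 Mb, read 5.99 and 4.07 CPM with siFBL, against 13.9 and 11.6 CPM with siCTRL (log2 -1.35), and was not called (adjusted p 0.0715, edgeR). The count of 8 became 1 without siCTRL library A, 5 without siCTRL library B, 3 without siFBL library A and 2 without siFBL library B. ZNF726 lost its call without siCTRL A or siFBL B, ZNF43 without siCTRL A or siFBL A, ZNF85 without siCTRL A, siCTRL B or siFBL B, ZNF266 without siCTRL A, siFBL A or siFBL B, and ZNF524, ZNF675 and ZNF738 without any 1 of the 4.

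At 12 h the difference was wider: 41 of 233 fell and 3 rose, where 10.7% of all genes were lower and 2.73% higher, with a median of -0.34 (all genes 0.00). Scaled to ribosomal protein mRNAs it was 23 lower and 6 higher. All 7 that had fallen at 0 h were among the 41. ZNF331, an imprinted gene, stood out. With siFBL it read 13.6 and 12.3 CPM at 0 h, 2.51 and 2.60 CPM at 3 h, 3.77 and 1.44 CPM at 6 h and 2.28 and 0.874 CPM at 12 h. With siCTRL it read 24.3 and 19.5, 12.5 and 12.6, 10.2 and 14.3, and 16 and 13.7 CPM at the same hours. It was thus lower with siFBL at every hour, in every library, by -0.76 at 0 h (adjusted p 0.236, edgeR) and -3.24 at 12 h (SE 0.425, adjusted p 8.83e-05, edgeR). That the libraries did not overlap adds no support, since the gene was chosen by its call at 12 h. The differences at 3 and 6 h were not tested. ZNF43 read 1.74 and 0.966 CPM at 12 h with siFBL, against 4.74 and 4.49 CPM with siCTRL (log2 -1.77, adjusted p 0.000365). ZNF44 was lower by -1.54 (adjusted p 0.00262). These 3 kept their calls without any 1 library.

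Of the 41 that fell at 12 h, 7 kept their call without any 1 library: ZNF331, ZNF43, ZNF44, ZNF714, ZNF266, ZNF83 and ZNF507. The last 2 are named after their values were seen. ZNF254 read 4.02 and 2.23 CPM with siFBL, against 9.43 and 9.74 CPM with siCTRL (log2 -1.62, adjusted p 0.00481, edgeR). ZNF180, ZNF613, ZNF700 and ZNF726 changed by -1.70, -1.75, -1.84 and -1.87, and ZNF121, at 0.505 and 0.115 CPM with siFBL against 1.38 and 2.11 CPM with siCTRL, by -2.49. The calls of ZNF254, ZNF726 and ZNF682 (log2 -1.50) were lost without siFBL library B (adjusted p 0.0755, 0.0932 and 0.0586), those of ZNF613 and ZNF180 without siCTRL library B (0.066 and 0.0967), that of ZNF700 without siCTRL A or siFBL B (0.0775 and 0.112), those of ZNF121 and ZNF324 (-1.59) without siCTRL A, siCTRL B or siFBL B, and that of ZNF550 (-1.60) without siCTRL B, siFBL A or siFBL B. ZNF524 again rose, to 14.5 and 12.3 CPM with siFBL, against 9.04 and 9.06 CPM with siCTRL (log2 0.57, adjusted p 0.0466), a call lost without siCTRL A, siCTRL B or siFBL A. The count of 44 became 19 without siCTRL A, 20 without siCTRL B, 16 without siFBL B and 54 without siFBL A.

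**Figure D4:**
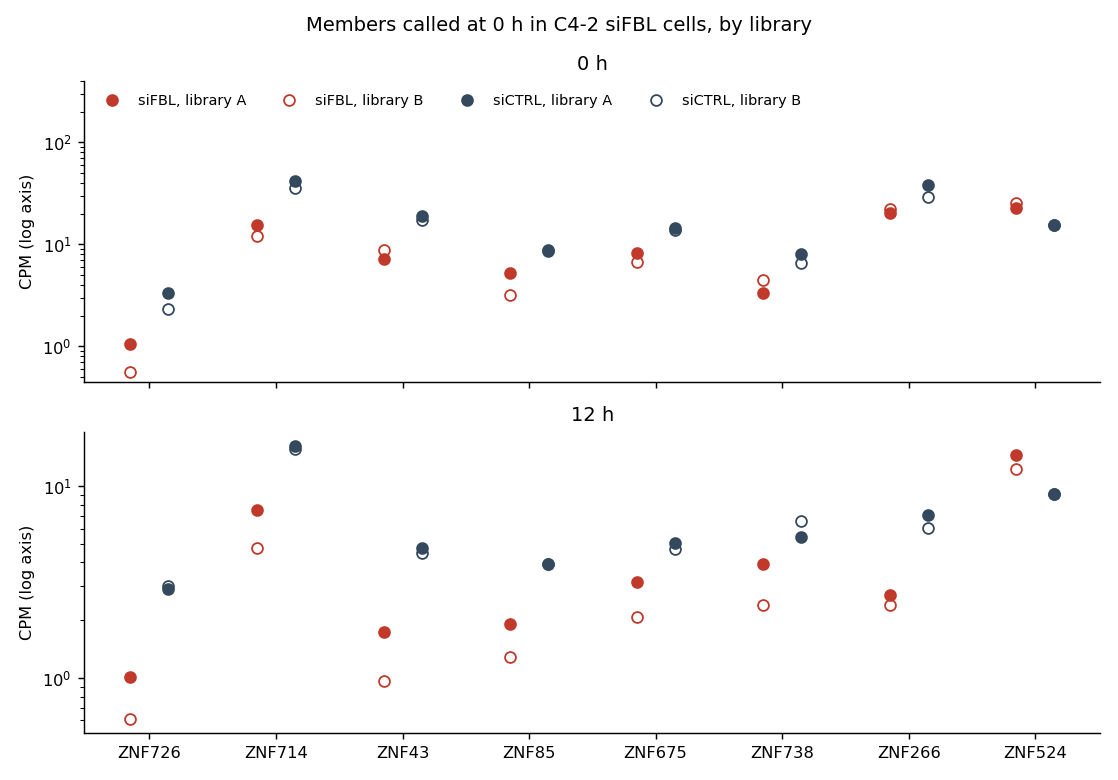
CPM on a log axis of the 8 chromosome 19 ZNF genes called at 0 h in C4-2 cells, with siFBL left of siCTRL, at 0 and 12 h. Filled points are library A and open points library B of each group, and the letters only name libraries. ZNF714 stands at 15.3 and 12.0 CPM with siFBL and 42 and 35.7 CPM with siCTRL at 0 h, and ZNF524 is the 1 gene that is higher with siFBL.

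HEK293T cells gave the opposite balance. With siFBL at 0 h 3 of 179 genes rose and 0 fell (edgeR, adjusted p under 0.05), where 0.93% of all genes were higher and 0.81% lower, and the median was 0.31 (all genes 0.04) with 141 of 179 above 0. Scaled to ribosomal protein mRNAs the median of all genes became 0.15 and the family stayed 0.27 above it. By raw p under 0.05, 37 were higher and 1 lower in edgeR, and DESeq2 called 12. ZNF112 read 4.85 and 6.40 CPM with siFBL, against 1.73 and 2.11 CPM with siCTRL (log2 1.55, SE 0.275, adjusted p 0.0116, edgeR). ZNF583 read 4.94 and 7.20 CPM, against 1.82 and 1.59 CPM (log2 1.83, SE 0.437, adjusted p 0.0443). ZNF527 read 5.13 and 5.31 CPM, against 2.00 and 2.50 CPM (log2 1.21, SE 0.262, adjusted p 0.0296). None of the 3 overlapped between the siRNAs, which adds no support since they were chosen by their call. The count became 0 without siCTRL replicate 1, siCTRL replicate 2 or siFBL replicate 2, and 2 without siFBL replicate 1, where ZNF112 was still called and ZNF583 and ZNF527 were not (adjusted p 0.0614 and 0.0746, edgeR).

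At 24 h with siFBL, 7 rose and 1 fell, where 8.96% of all genes were higher and 6.11% lower. ZNF583 stood at 1.62 and 2.03 CPM, against 0.217 and 0.307 CPM with siCTRL (log2 2.75, adjusted p 0.00904, edgeR), ZNF749 at 6.93 and 7.14 CPM, against 3.69 and 3.32 CPM (1.01, adjusted p 0.0119), and ZNF45 at 4.08 and 4.25 CPM, against 2.46 and 2.40 CPM (0.78, adjusted p 0.0166). ZNF580 at 83.6 and 211 CPM, against 67.8 and 59.3 CPM, rested on replicate 2 of siFBL: its log2 change of 1.21 became 0.39 without it (adjusted p 0.588, edgeR). ZNF358 at 472 and 683 CPM, against 336 and 330 CPM (0.79), became 0.50 without it. ZNF17 (1.1 and 1.23 CPM, against 0.578 and 0.43 CPM) and ZNF792 were the other 2 that rose, both under the mean of 1 CPM used to choose named genes, and are named after their values were seen. ZNF792 read 0.453 and 0.246 CPM, against 0 and 0 CPM with siCTRL (adjusted p 0.00797, edgeR). Set against a floor of 3 counts per siCTRL library (0.176 CPM), the siFBL mean of ZNF792 (0.35 CPM) was 1.99-fold higher. ZNF444 fell, at 63.0 and 61.4 CPM with siFBL, against 99.2 and 83.5 CPM with siCTRL (-0.55, adjusted p 0.0498). The count of 8 became 0 without siCTRL replicate 1, 1 without siCTRL replicate 2, 1 without siFBL replicate 2 and 7 without siFBL replicate 1, and scaled to ribosomal protein mRNAs it was 7 higher and 0 lower. ZNF583, ZNF749, ZNF45, ZNF580 and ZNF358 lost their calls without siCTRL replicate 1, siCTRL replicate 2 or siFBL replicate 2, ZNF792 without either siCTRL replicate, and ZNF17 and ZNF444 without any 1 of the 4.

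With siNOP56 no gene of the family was called by edgeR. At 0 h 0.187% of all genes were called, 12 of 179 were higher and 1 lower by raw p under 0.05 in edgeR, and DESeq2 called 1. At 24 h 5.31% of all genes were called, 9 were higher and 5 lower by raw p under 0.05 in edgeR, and DESeq2 called 0. The medians were 0.10 at 0 h (all genes 0.05) and 0.04 at 24 h (all genes 0.03). ZNF787 had the lowest p at 0 h, with 60 and 78.8 CPM with siNOP56, against 41.0 and 44.3 CPM with siCTRL (log2 0.70, adjusted p 0.127, edgeR). At 24 h ZNF792 did (adjusted p 0.0688), with 0.327 and 0.061 CPM, against 0 and 0 CPM with siCTRL. Without siNOP56 replicate 1, the counts were 1 at 0 h and 2 at 24 h.

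The response to siFBL at 0 h was set between the lines in 1 fit. The median of the difference, C4-2 minus HEK293T, was -0.40 over 232 genes (all genes 0.10), with 3 called lower and 0 higher, where 4.55% and 2.81% of all genes were. Over the 179 genes tested in both lines the 2 responses had a rho of 0.09. ZNF331 read 13.6 and 12.3 CPM with siFBL against 24.3 and 19.5 CPM with siCTRL in C4-2, and 1.48 and 1.79 CPM against 0.443 and 0.344 CPM in HEK293T (difference -2.62, SE 0.61, adjusted p 0.00937, edgeR). ZNF473, known as ZFP100, a part of the U7 snRNP that trims histone mRNA 3′ ends, read 13.6 and 19 CPM against 28.9 and 27.8 CPM in C4-2, and 36.4 and 57.2 CPM against 21.1 and 22.5 CPM in HEK293T (-1.72, SE 0.379, adjusted p 0.00612, edgeR). ZNF714 differed by -1.27 (SE 0.295, adjusted p 0.00925), with 26.7 and 18.7 CPM against 24.9 and 22.2 CPM in HEK293T. Only the difference was called in ZNF331 and ZNF473: the change within each line was not, with adjusted p of 0.236 in C4-2 and 0.052 in HEK293T for ZNF331 and of 0.0694 and 0.0653 for ZNF473 (edgeR). ZNF714 fell in C4-2, and in HEK293T its siFBL and siCTRL libraries overlapped (log2 -0.05, adjusted p 0.915, edgeR). The call of ZNF331 was lost without HEK293T siCTRL replicate 2 (-2.45, adjusted p 0.0687), that of ZNF473 without HEK293T siFBL replicate 2 (-1.37, adjusted p 0.0572), and that of ZNF714 without C4-2 siCTRL A (-1.16, 0.0548), C4-2 siFBL B (-1.07, 0.0586), HEK293T siCTRL replicate 2 (-1.19, 0.058) or HEK293T siFBL replicate 1 (-0.97, 0.0653). The lines differ in depth and came from separate tables, and these cannot be told apart from the line.

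The readouts were also set out by position along the chromosome. The groups at 51.6 to 53.6 Mb and 19.7 to 24.1 Mb stood highest in RIP (28 higher and 3 lower of 38, median 0.80, and 20 higher and 2 lower of 26, median 0.79), followed by 11.5 to 12.6 Mb (13 higher and 1 lower of 21, 0.57). The group at 36.2 to 37.8 Mb stood lowest (7 higher and 12 lower of 24, median -0.52), and the one at 55.5 to 58.5 Mb was mixed (22 higher and 19 lower of 56, -0.14). With siFBL at 0 h in C4-2, the groups at 34.7 to 35.0 Mb (5 genes), 51.6 to 53.6 Mb and 19.7 to 24.1 Mb had the lowest medians, at -0.46, -0.45 and -0.41, with 0 of 5, 0 of 39 and 6 of 33 genes lower. The median C4-2 siCTRL slope was -0.088 per hour at 19.7 to 24.1 Mb (13 lower of 33), -0.147 at 51.6 to 53.6 Mb (27 lower of 39), -0.184 at 55.5 to 58.5 Mb (45 lower of 57) and -0.227 at 11.5 to 12.6 Mb (16 lower of 23). Members of a group are near relatives and share sequence, so they are not independent, and no test was made between groups.

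**Figure D5:**
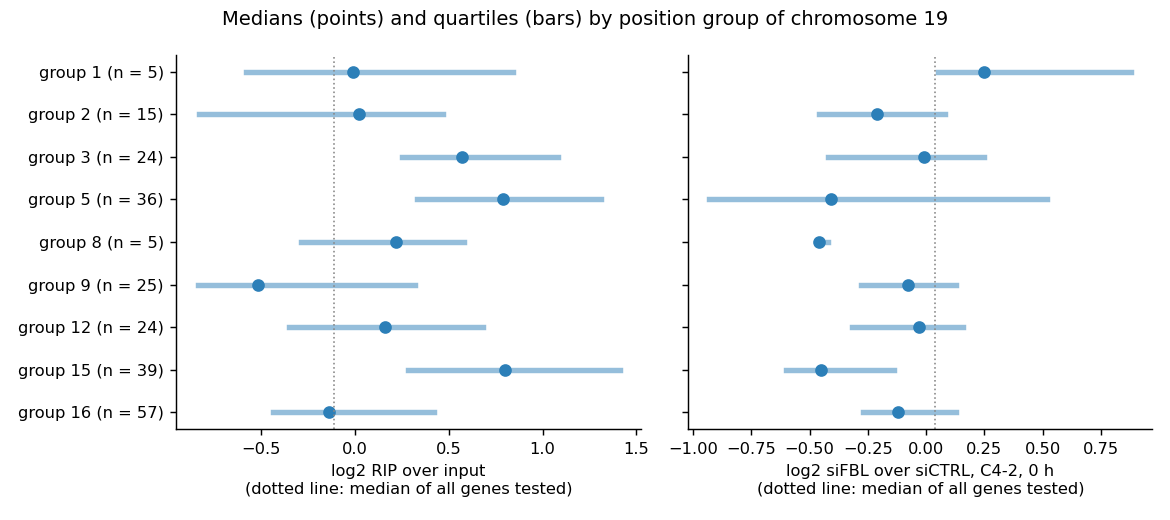
Median and quartiles of the log2 RIP over input and of the log2 siFBL over siCTRL at 0 h in C4-2, for each position group with at least 5 genes, in order along chromosome 19. The dotted line is the median of all genes. The groups at 19.7 to 24.1 and 51.6 to 53.6 Mb are high in RIP (0.79 and 0.80) and low with siFBL (-0.41 and -0.45).

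The silencing machinery through which KRAB proteins act was read beside them, as a list of genes that includes TRIM28, its partners and DNA methylation factors. In C4-2 with siFBL at 0 h 9 of 30 fell and 0 rose (median -0.39), where 6.87% of all genes were lower and 1.61% higher. TRIM28 itself, the KRAB co-repressor, read 592 and 676 CPM with siFBL, against 943 and 935 CPM with siCTRL (log2 -0.57, adjusted p 0.00364, edgeR). UHRF1 (-2.11, adjusted p 1.39e-05) and DNMT1 (-1.63, adjusted p 1.08e-06), which maintain DNA methylation during replication, fell further. These last 2 are named after their values were seen. In HEK293T 0 of 29 were called with siFBL at 0 h by edgeR (2 higher and 2 lower by raw p under 0.05) and 0 by DESeq2, where 0.93% of all genes were higher and 0.81% lower in edgeR. There TRIM28 read 729 and 843 CPM with siFBL, against 713 and 725 CPM with siCTRL. In RIP 19 of 29 were higher and 7 lower (median 0.80), where 39.9% of all genes were higher and 43% lower, with TRIM28 among the higher ones at 1124 and 1250 CPM, against 580 and 588 CPM in input. Over time in C4-2 with siCTRL, 11 of the 30 had a higher slope and 12 a lower one (median -0.002 per hour), where 15.4% and 18.6% of all genes did.

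Genes of the family with a known role were spread over these readouts. ZNF350, a repressor that binds BRCA1, fell over time in C4-2 with siCTRL (-0.191 per hour, adjusted p 0.00285, edgeR) and stood a little higher in RIP (0.31). ZNF304 had a slope of -0.316 (adjusted p 0.000923) and a RIP change of 0.49, reading 10.7 and 11.4 CPM with siFBL and 13.6 and 13 CPM with siCTRL at 0 h in C4-2. ZNF568, whose mouse counterpart represses a placental Igf2 transcript, had -0.089 (adjusted p 0.0108) and 0.96 in RIP. ZNF432, with the most seed matches, read 3.14 and 2.40 CPM with siFBL, against 4.90 and 4.00 CPM with siCTRL at 0 h, and was not called (-0.69, adjusted p 0.487, edgeR). ZNF91 was not called with siFBL at 0 h in either line, at -0.31 in C4-2 (adjusted p 0.526, edgeR) and -0.08 in HEK293T (adjusted p 0.935), and its C4-2 siCTRL slope of -0.081 was not called (adjusted p 0.0768).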

How the data were processed

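For the time courses and RIP, the authors deposited raw counts, 1 whole number per gene symbol and library. The submitters' processing notes name TopHat2 2.1.1, HOMER, hg38, GRCh38.p13 and hg19 but give none a role, so no coordinates come from these tables. The SLAM-seq files, which per the file headers come from slamdunk 0.4.3, give counts of reads and of T>C reads per 3′ end interval. Trim Galore and hg38 stand beside them in the processing notes. From their deposited score, a CPM column, only the total of mapped reads was worked back. The interval with most reads stood for each gene.

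Counts were tested with edgeR 4.0.16 (TMM, default filter on low counts, all libraries of a table in 1 fit), T>C log2 odds with limma 3.58.1, and DESeq2 1.42.0 (R 4.3.3) was the other count tool. The adjusted p threshold was 0.05. Genes that passed the filter were 233 in C4-2, 179 in HEK293T, 218 in RIP, 209 for SLAM-seq reads and 145 for T>C shares. Each edgeR fit, for 1 of its comparisons, and the limma fit by labelled hour were run on simulated data, with results not given here. DESeq2, the scaling to ribosomal protein mRNAs and the fits by header hour were not. Named per comparison are up to 12 called genes in each direction with the largest change and a mean of at least 1 CPM, or the 3 with the lowest p where fewer than 3 were called, 10 per line by level, 10 by SLAM-seq reads, and genes with a known role. The genes, lists and tests were chosen with earlier results of these data known. The C4-2 columns carry replicate numbers, but their names follow the titles of the HEK293T samples. They were therefore matched to siRNA and hour only, and each pair of libraries carries the letters A and B here.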

Additional observations from a re-analysis of the deposited data

Results flagged for a closer look

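Between the lines, 3 genes differed in their response to siFBL at 0 h by the test of the difference itself (C4-2 minus HEK293T, edgeR, log2). ZNF331 differed by -2.62 (adjusted p 0.00937), ZNF473 by -1.72 (adjusted p 0.00612) and ZNF714 by -1.27 (adjusted p 0.00925). All libraries of ZNF331 and ZNF473 were lower with siFBL in C4-2 and higher with siFBL in HEK293T. This adds no support, since the genes were chosen by the call of that difference. Within a line, neither gene's change was called. Each call was lost without at least 1 library, as given with the comparison. Depth and table differ with the line, and their part in these differences was not tested.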

How the results depend on the processing

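Counts of called genes below are both directions together. For siFBL in C4-2 at 0 h, 8 became 5 scaled to ribosomal protein mRNAs, 20 with DESeq2 and 19 with the libraries of that hour alone; at 12 h, 44 became 29 with that scaling and 12 with that hour alone. For siFBL in HEK293T at 0 h, 3 became 6 with no filter, 12 with DESeq2 and 0 with that hour alone; at 24 h, 8 became 5 with no filter and 0 with that hour alone. For siNOP56 at 0 h, 0 became 1 with DESeq2. Between the lines, 3 became 5 with no filter and 7 with DESeq2. HEK293T slopes scaled to ribosomal protein mRNAs gave 151 with siFBL, 156 with siNOP56 and 145 with siCTRL, in place of 96, 80 and 81. SLAM-seq reads gave 3 with no filter, 1 with that scaling, 5 with DESeq2, 18 with the header hour, 10 with the agreeing libraries and 1 summed over intervals, in place of 0. The use of the header hour was chosen after seeing the data. The cause of these changes was not tested.

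Slopes that reversed did so with scaling to ribosomal protein mRNAs: ZNF358 to -0.018 with siFBL and -0.029 with siCTRL in C4-2, ZNF599 to -0.038 and -0.028, ZNF580 and ZNF428 to -0.049 with siCTRL, ZNF738 in HEK293T to -0.021 with siFBL and -0.013 with siCTRL, and ZNF444 to -0.023 with siNOP56. Of 842 values of named genes under other settings, 770 kept their direction and call, 53 lost the call, 10 gained one and 9 reversed.

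Leaving out 1 library gave 1 to 5 (C4-2 siFBL 0 h), 16 to 54 (12 h), 0 to 2 (HEK293T siFBL 0 h), 0 to 7 (24 h), 0 to 1 and 0 to 2 (siNOP56 0 and 24 h), 134 to 173 and 113 to 155 (C4-2 slopes, siFBL and siCTRL), 43 to 111, 29 to 88 and 35 to 85 (HEK293T slopes, siFBL, siNOP56 and siCTRL), 147 to 164 (RIP), 1 to 4 (between lines) and 0 to 0 (slope differences and SLAM-seq). A single library left in a group is assumed to vary like the others.

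Within an hour, deviations of libraries with equal replicate numbers had correlations of only -0.01 to 0.14 in HEK293T. RIP and input had 0.06. Over all 66 pairs of HEK293T groups the correlations ran from -0.08 to 0.80 (median 0.00). Some groups of different hours thus shared deviations by replicate number, while the main fits took all libraries as independent. In SLAM-seq the same-hour correlations were 0.29 to 0.39, but the number goes with the header hour there. With a replicate block the HEK293T siFBL count at 0 h was 11 in place of 3, siNOP56 at 0 h 1 in place of 0, and RIP 168 in place of 159. No paired analysis was made for C4-2 or between the lines, because the C4-2 columns were matched to siRNA and hour only. Whether their replicate numbers pair the libraries was not tested.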
